A study of Mus musculus with 3 samples.

Results

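The 81 genes described here encode the proteins of the cytoplasmic ribosome. They were taken by name from the 32227 genes of the deposited tables, as every symbol that begins with Rpl or Rps and goes on with a number and, at most, the letters a, x, l or y, together with Rplp0, Rplp1, Rplp2 and Rpsa. Of these, 50 encode proteins of the large subunit and 31 proteins of the small subunit. The rule leaves out pseudogenes and the S6 kinases. It also misses 6 other Rpl or Rps names, among them Rps3a1 (10687 UMIs in kept nuclei) and Rpl22l1 (4796 UMIs), and the fusion gene Fau (22317 UMIs), which encodes a ubiquitin-like part joined to a ribosomal protein.

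Single nucleus RNA sequencing was performed on dorsal root ganglia (DRG), which house the somas of sensory neurons beside the spinal cord, at lumbar levels L3 to L5 of untreated C57BL/6 mice. There was 1 library from adult mice (3 months) and there were 2 libraries from aged mice (21 months), and the number of mice behind a library is not given in the sources used here. Ages are those of the sample labels, from which the series' design text differs. Nuclei were captured by PIP-seq, in which each transcript carries a unique molecular identifier (UMI), so that a count is a number of captured molecules. A barcode in which over 1000 genes were detected counted as a kept nucleus, and barcodes of 10 to 99 UMIs were summed as free RNA, the RNA outside nuclei that reaches the capture.

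Each ribosome holds a large and a small subunit, and each subunit is built in the nucleolus from ribosomal RNA and proteins that are made in the cytoplasm and imported. Ribosomal protein messenger RNAs are among the most abundant of a cell, are exported quickly from the nucleus and are known for a pyrimidine tract at their 5′ end (the TOP motif) through which the mTOR pathway, with the RNA-binding protein Larp1, sets their translation. In sensory neurons they are also carried into axons, where local translation takes part in the response to injury. A nuclear library can hold them as new nuclear transcripts, as cytoplasm left on nuclei or as free RNA, and the part of each was not tested. UMIs were counted without a stated use of strand, and 21 of the 81 members overlap a gene on the other strand, among them Rpl3 (Syngr1), Rps14 (Ndst1) and Rpl10a (CT025652.2).

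The libraries held 167664164 UMIs (adult), 95647106 UMIs (aged replicate 1) and 69045987 UMIs (aged replicate 2), of which between 53.8% and 58.4% lay in 11518, 5130 and 2611 kept nuclei with medians of 3269, 4318 and 4900 UMIs. Kept barcodes shared between libraries numbered 1, 1 and 0 over the 3 pairs of libraries. Nuclei were assigned to cell classes with marker genes, and because markers alone define them, class names end in "-like". Each class had between 5 and 12 of its own markers over 2-fold above the other classes. Assignment by likeness of whole profiles gave the same class to 94.1% of satellite glial cell (SGC)-like nuclei but to 56.8% of neuron-like nuclei, of which 834, 864 and 352 (adult, aged replicate 1 and aged replicate 2) were nearest to the profile of free RNA. All libraries are labelled male, yet they held 1414, 844 and 929 CPM of Xist (UMIs scaled to 1000000) in kept nuclei beside 20.6, 13.2 and 7.87 CPM of the Y-linked gene Ddx3y (adult, aged replicate 1, aged replicate 2). The study's methods give its aged mice as female in the description of the animals and as of both sexes for explants. The 4 X-linked members, Rpl10, Rpl36a, Rpl39 and Rps4x, are therefore given with this in view. Rpl36a, Rpl39 and Rps4x are among the members named below.

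For the genes as a group, abundance was first taken over all kept nuclei of a library, as a share of its UMIs. The 81 genes took 64.9 (adult), 73.4 (aged replicate 1) and 52.7 (aged replicate 2) of every 10000 UMIs, or 63.7 ± 10.4 (SD, n = 3). No single gene made up the group. By UMIs, not scaled to length, Rpl6 took 32078, and stood at 182, 189 and 136 CPM (adult, aged replicate 1, aged replicate 2, an order kept throughout). Other members with many UMIs were Rplp1 (31215 UMIs), Rpl41 (30958 UMIs), Rps29 (28380 UMIs), Rpl38 (26427 UMIs), Rpl23a (24906 UMIs), Rpl13 (24680 UMIs), Rpl37a (21458 UMIs) and Rpl37 (21378 UMIs). Per kilobase of annotated exon, Rplp1 (323 CPM per kilobase), Rpl38 (253) and Rps29 (212) led. The kit captures 3′ ends, where UMIs need not grow with length, and these 3 genes have short annotated exons (below 500 bases in Rplp1, 542 in Rpl38 and 693 in Rps29), so that this scale can raise them. Rplp0, Rplp1 and Rplp2 form the stalk, which recruits the translation factors with GTPase activity. They had 9860, 31215 and 13998 UMIs, and the exons of Rplp0 (1659 bases) and Rplp2 (2072 bases) are longer than those of Rplp1, so that no order of their levels is read here.

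The low end of the list was held by tissue-restricted paralogues. Rpl3l, the striated muscle counterpart of Rpl3, had 100 UMIs in kept nuclei. Of its UMIs, 46 lay in barcodes with no class (38, 6 and 2 by library) and 30 in neuron-like nuclei (15, 6 and 9). Rpl39l, known from testis, had 4 UMIs, and Rpl10l, a testis-specific retrogene, had 0 UMIs in kept nuclei and 2 UMIs in free RNA. Rpl36 (4245 UMIs) and Rps27l (3775 UMIs), a paralogue of Rps27 that responds to DNA damage, completed the 5 lowest members. On the same scale per kilobase of annotated exon, Rpl3 stood at 29.1 CPM and Rpl3l at 0.289 CPM, Rps27 at 92.6 CPM and Rps27l at 23.4 CPM, and Rpl39 at 41.9 CPM and Rpl39l at 0.0205 CPM. The X-linked Rpl36a (28.9 CPM per kilobase) and its autosomal retrogene Rpl36al (27.5 CPM per kilobase) lay close together. Ribosomal protein genes have many processed pseudogenes, so that reads may have been split between a gene and its copies, and 8 annotated pseudogenes of members held 18765 UMIs in kept nuclei, 9996 of them at Rpl10-ps3.

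**Figure D1:**
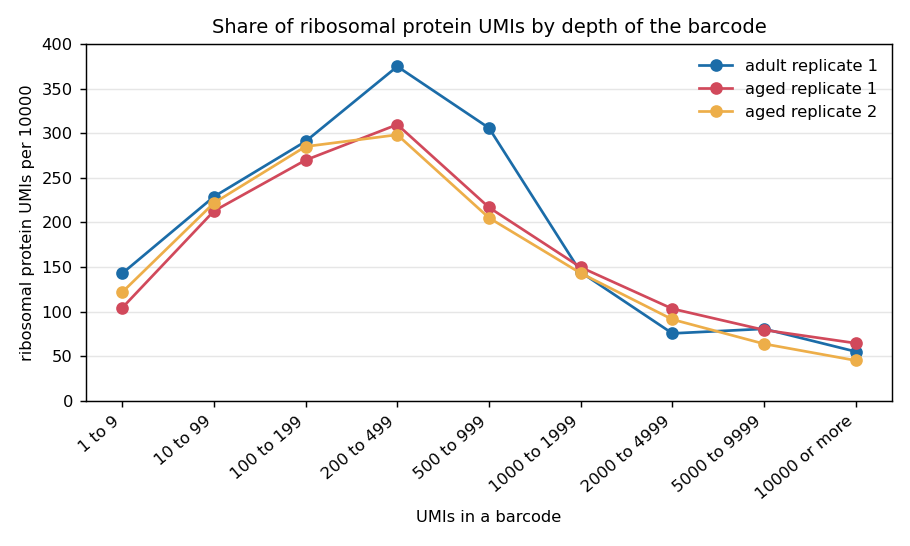
UMIs of the 81 ribosomal protein genes per 10000 UMIs (vertical axis) in barcodes grouped by their number of UMIs (horizontal axis, from 1 to 9 up to 10000 or more), with 1 line for each library. The share rose to between 298 and 375 in barcodes from 200 to below 500 UMIs and fell to between 45.3 and 64.7 in barcodes of 10000 or more UMIs in the 3 libraries.

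To compare nuclei with their surroundings, the sum over kept nuclei was set against the sum over barcodes of 10 to 99 UMIs of the same library. Ribosomal protein transcripts were rarer in nuclei. They took 229 (adult), 213 (aged replicate 1) and 222 (aged replicate 2) of every 10000 UMIs in free RNA, or 221 ± 8.08 (SD, n = 3), which did not overlap the range of kept nuclei. Of the 79 members that passed the filter on low counts, 78 were lower in nuclei and 0 higher (Benjamini-Hochberg adjusted p under 0.05 by the quasi-likelihood test of edgeR, blocked on library), where 28.7% of the 20970 genes tested were lower and 29.1% higher. The median log2 difference between nuclei and free RNA was -1.89 for members. The same count of 78 lower members was found with another scaling, with DESeq2, without any one library, after thinning and with the barcodes nearest to free RNA left out.

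The size of the difference varied little among members. Rpl38, a large subunit protein known for its part in the translation of Hox messenger RNAs, fell the most. It stood at 154, 157 and 101 CPM in nuclei and at 688, 614 and 615 CPM in free RNA (adult, aged replicate 1, aged replicate 2), a log2 difference of -2.32 (SE 0.15). Rps29 (-2.27, SE 0.15) and Rps21 (-2.21, SE 0.13) followed. The smallest falls were those of Rpl3, which lies near the peptidyl transferase centre (-1.37, SE 0.12), Rps2 at the entry of the messenger RNA channel (-1.41, SE 0.12) and Rpl5, which with Rpl11 carries a small ribosomal RNA into the large subunit (-1.47, SE 0.12). Rpl3l was the 1 member that did not pass, with 0.764, 0.340 and 0.319 CPM in nuclei and 0.568, 0.439 and 0.285 CPM in free RNA (log2 difference 0.08, SE 0.44, adjusted p = 0.894 with edgeR's quasi-likelihood test). Large and small subunit members had medians of -1.87 and -1.93. Among members, the log2 difference and the exon length had a Spearman correlation of 0.32 over 78 genes of the same libraries, with longer genes closer to 0.

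The 5′ ends of the members were searched for the pyrimidine tract through which TOP messenger RNAs are controlled. In RefSeq start windows of the GRCm38.p6 build, a run of a C followed by at least 4 bases that are each C or T, on the strand of the gene and beginning within 5 bases of the annotated start, was found at 28 of the 61 members with a window (45.9%) and at 5718 of 27025 genes (21.2%). On the other strand the same letters were found at 13.1% of these members and 24.4% of genes. Windows of 30 bases, 10 before the annotated start and 20 from it on, are given for 7 members that recur in the results, with the run in capitals. The first 4 hold the run, and the last 3 hold none that begins so near the annotated start, although those of Rpl6 and Rpl10a hold such letters farther before it.
Rpl38, chr11:114668570-114668599, plus strand: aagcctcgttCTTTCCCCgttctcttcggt
Rps6, chr4:86857348-86857377, minus strand: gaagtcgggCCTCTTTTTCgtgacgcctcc
Rplp2, chr7:141447641-141447670, plus strand: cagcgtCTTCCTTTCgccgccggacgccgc
Rps15a, chr7:118116128-118116157, minus strand: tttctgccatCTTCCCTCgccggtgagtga
Rpl6, chr5:121204491-121204520, plus strand: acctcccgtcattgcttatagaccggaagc
Rpl37a, chr1:72711250-72711279, plus strand: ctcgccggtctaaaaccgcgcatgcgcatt
Rpl10a, chr17:28328461-28328490, plus strand: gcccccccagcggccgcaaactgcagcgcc
Annotated starts can miss the start that a tissue uses, so that a window without the run says only that no such letters begin within that distance of the annotated start. Members with the run had a median log2 difference between nuclei and free RNA of -1.95 (28 genes) and members with a window without it -1.84 (31 genes tested). In the class comparisons below the medians of the 2 kinds of members were close as well, at -0.45 and -0.43 in SGC-like nuclei and 0.51 and 0.46 in myelinating Schwann cell (MSC)-like nuclei.

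Most other genes of translation were lower in nuclei too. Of 35 translation factors, 34 were lower in nuclei and 0 higher, against 28.7% of all genes lower and 29.1% higher, led by Tpt1 (log2 difference -1.95, SE 0.14), itself a TOP messenger RNA, and Eef1b2 (-1.79, SE 0.12). Of 35 ribosome biogenesis genes, 27 were lower and 2 higher, and the lowest was Nop10 of the pseudouridylation complex (-1.96, SE 0.11). The fusion gene Fau (-2.03, SE 0.14) lay within the range of the members. In contrast, 10 of 19 genes of TOP control and the S6 kinases were higher in nuclei and 4 lower, among them the RNA-binding proteins Tia1 (1.20, SE 0.10) and Cnbp (-1.08, SE 0.11). These lists were chosen with results of these data known.

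**Figure D2:**
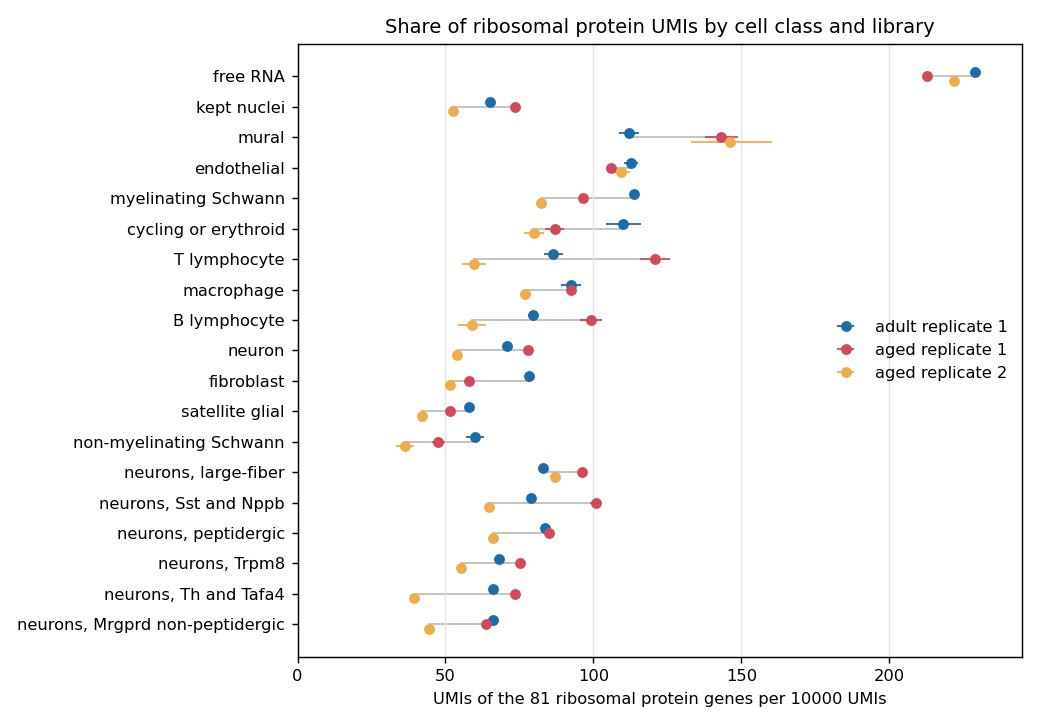
UMIs of the 81 ribosomal protein genes per 10000 UMIs (horizontal axis) in free RNA, all kept nuclei, marker-defined classes and neuron subtypes, with 1 point for each library and exact Poisson 95% intervals that cover counting error only. Free RNA lay between 213 and 229, endothelial-like nuclei between 106 and 113, and SGC-like nuclei between 42.0 and 58.0.

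To ask which cells hold these transcripts, UMIs were summed per class and library. Averaged over the libraries, vascular and myelinating classes had the largest shares and SGC-like and NMSC-like nuclei the smallest. Endothelial-like nuclei held 113, 106 and 109 member UMIs per 10000 (adult, aged replicate 1, aged replicate 2), MSC-like nuclei 114, 96.6 and 82.4, macrophage-like nuclei 92.3, 92.3 and 77.0, neuron-like nuclei 70.7, 77.7 and 54.0, fibroblast-like nuclei 78.1, 58.1 and 51.6, SGC-like nuclei 58.0, 51.4 and 42.0, and non-myelinating Schwann cell (NMSC)-like nuclei 60.1, 47.6 and 36.2. T lymphocyte-like nuclei held 86.4, 121 and 59.6, B lymphocyte-like nuclei 79.5, 99.04 and 58.9, and cycling or erythroid-like nuclei 110.02, 86.9 and 79.8, so that the order differed between libraries, and T lymphocyte-like nuclei were above endothelial-like ones in aged replicate 1. Mural-like nuclei had the highest mean share, 134 ± 19.0 (SD, n = 3), but only 10 nuclei in aged replicate 2, and were not tested. Ranges of neighbours in this order overlapped, as those of neuron-like and fibroblast-like nuclei did, while the endothelial-like and SGC-like ranges lay apart.

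Each class was compared with the average of the 9 others, with edgeR's quasi-likelihood test blocked on library. Of 78 members tested, 50 were higher and 0 lower in endothelial-like nuclei, where 10.1% of 14174 genes were higher and 4.65% lower. The median log2 difference of members was 0.54. The largest were those of Rps14 (0.94, SE 0.17), with 214, 177 and 198 CPM in endothelial-like and 94.6, 59.6 and 45.1 CPM in SGC-like nuclei, Rps6 (0.88, SE 0.15), the substrate of the S6 kinases, with 87.8, 120 and 107 CPM in endothelial-like and 37.0, 39.8 and 51.3 CPM in SGC-like nuclei, and Rpl37a (0.84, SE 0.17). For these 3 genes, each library was higher in endothelial-like nuclei. Free RNA scaled to the hemoglobin UMIs of the endothelial-like sum of aged replicate 2 would hold 175% of its member UMIs, and it was subtracted neither there nor from cycling or erythroid-like sums. The subtraction therefore gives no value for endothelial-like nuclei, and in the values of other classes with free RNA subtracted the average they are compared with holds these unsubtracted sums, which lowers the difference. Without aged replicate 2, 8 members were higher, with a median of 0.44, and without aged replicate 1, 31 were higher.

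Myelinating Schwann cells insulate single large axons, and in MSC-like nuclei 55 members were higher and 0 lower, against 18.4% of genes higher and 14.5% lower, with a median log2 difference of 0.50. Rps15a (0.70, SE 0.16) stood at 129, 110 and 102 CPM there. Rpl21 (0.70, SE 0.18) stood at 133, 147 and 141 CPM, and Rps10 (0.69, SE 0.16) at 140, 140 and 104 CPM. After free RNA was subtracted 0 members were higher (median 0.24), and 29 were higher without the adult library and 27 without aged replicate 1. By the hemoglobin UMIs in each sum, free RNA could hold 69.7%, 40.4% and 64.3% of the member UMIs of MSC-like nuclei (adult, aged replicate 1, aged replicate 2).

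Satellite glia ensheathe the neuronal somas, and SGC-like nuclei had 50 members lower and 0 higher, against 14.1% of genes lower and 18.8% higher, with a median of -0.45. Rps9, whose bacterial relative takes part in the accuracy of decoding, was lowest (-0.70, SE 0.18, with 70.3, 65.8 and 56.1 CPM), followed by Rpsa (-0.69, SE 0.17, with 79.7, 89.4 and 75.9 CPM) and Rps12 (-0.69, SE 0.18, with 68.2, 61.4 and 45.8 CPM). The same 3 genes stood at 146, 130 and 138 CPM, 150, 174 and 168 CPM, and 130, 124 and 90.4 CPM in MSC-like nuclei. With free RNA subtracted, 0 members were lower in SGC-like nuclei (median -0.17), 3 were lower without aged replicate 1 (median -0.44) and 28 without aged replicate 2. On the same hemoglobin scale, free RNA could hold 49.2%, 21.8% and 28.0% of their member UMIs.

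In NMSC-like nuclei, with between 34 and 73 nuclei a library, 21 members were lower and 0 higher, against 3.34% of genes lower and 7.81% higher. Rps15a stood at 31.7, 33.6 and 27.4 CPM (-1.33, SE 0.30), below the other 9 tested classes of the same library. These values rest on few UMIs, since the sums held 252093, 357498 and 146122 UMIs of all genes. Rpl7 (-1.25, SE 0.28) and Rplp2 (-1.15, SE 0.27) followed. The count was 12 without the adult library, 3 without aged replicate 1, 10 without aged replicate 2, 5 with free RNA subtracted, 6 with barcodes nearest to free RNA left out and 6 after thinning. On the hemoglobin scale, free RNA could hold 65.8%, 31.2% and 76.1% of their member UMIs. By likeness of profiles, NMSC-like nuclei held 61.2, 53.7 and 44.8 member UMIs per 10000. That was above the 52.8, 46.2 and 34.6 of SGC-like nuclei by the same assignment. In fibroblast-like nuclei 15 of 78 members were lower and 0 higher (median -0.33), a share of 19.2% that is near the background of 14% of genes lower (19.2% were higher), led by Rps2 (-0.57, SE 0.13), Rpl27a (-0.54, SE 0.18) and Rpl9 (-0.54, SE 0.19). The count was 0 without aged replicate 1, 1 without aged replicate 2 and 52 in nuclei with more than 2000 genes.

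In neuron-like nuclei the group as a whole did not stand apart, and the value depended on how free RNA, depth and assignment were handled. Of 78 members, 3 were higher and 1 lower, against 32.8% and 25.2% of genes, with a median of 0.00. Rpl29 was higher (0.52, SE 0.15, with 30.05, 42.3 and 31.2 CPM against 21.4, 22.1 and 17.1 CPM in SGC-like nuclei), as were Rpl6 (0.37, SE 0.15) and Rpl24 (0.36, SE 0.14). Rps12 was lower (-0.44, SE 0.17, with 60.7, 83.6 and 62.0 CPM). With free RNA subtracted 37 members were higher (median 0.70), with each nucleus thinned to 1000 UMIs 41 were higher (median 0.39), and with nuclei assigned by likeness of profiles 45 were lower (median -0.37). The share of all genes called under each setting is not set beside these counts. Neuron-like nuclei had the deepest barcodes, with medians of between 7786 and 11797 UMIs. Scaled to hemoglobin UMIs, free RNA was the lowest part among the classes tested, between 8.69% and 15.1% of member UMIs. That scale follows hemoglobin only and sets no upper bound. Barcodes nearest to free RNA held 87386, 99318 and 39303 of the 291261, 220420 and 116504 member UMIs of neuron-like nuclei. The barcodes nearest to free RNA held 135 ± 8.98 member UMIs per 10000 and the other neuron-like nuclei 52.5 ± 9.25 (SD, n = 3). That split was made by likeness to free RNA over genes other than the members. Free RNA is itself rich in members, so the direction could be foreseen and is given as a description.

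**Figure D3:**
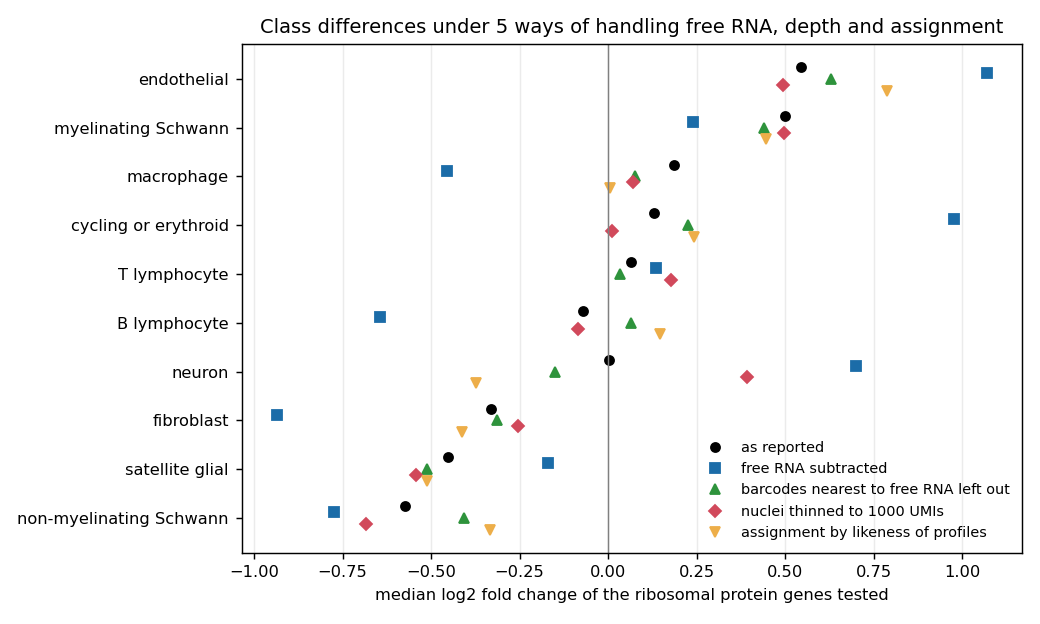
Median log2 difference of the ribosomal protein genes tested in a class relative to the average of the others (horizontal axis), for each class (vertical axis), as reported and under 4 other ways of handling free RNA, depth and assignment. Endothelial-like and MSC-like medians lay above 0 and SGC-like, NMSC-like and fibroblast-like medians below 0 as reported and under the 3 ways other than subtraction of free RNA, where some endothelial-like and cycling or erythroid-like sums were left unsubtracted and the medians cannot be read in the same way. The neuron-like median ran from -0.37 to 0.70.

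Immune classes differed from the rest by few members. Rpl10a, a large subunit protein of the stalk at the exit site for transfer RNA, had the largest difference among members in macrophage-like nuclei. It stood at 126, 214 and 203 CPM there and at 67.8, 72.0 and 62.9 CPM in SGC-like nuclei (0.87, SE 0.17, adjusted p = 0.000218 with edgeR's quasi-likelihood test). It was also the lowest of the 78 members in endothelial-like (-0.01, SE 0.18) and MSC-like nuclei (-0.02, SE 0.17). Rps29 (0.59, SE 0.15), Rps25 (0.45, SE 0.15), Rps2 (0.43, SE 0.13), Rpl3 (0.35, SE 0.13) and Rpl38 (0.33, SE 0.12) were the other members higher in macrophage-like nuclei, 6 in all against 16.7% of genes higher and 10.6% lower, and the count was 1 without aged replicate 1 and 1 without aged replicate 2. In T and B lymphocyte-like nuclei no member passed in either direction in edgeR's test, where 5.58% and 7.99% of genes were higher and 1.93% and 2.39% lower. At an unadjusted p under 0.05 there were 5 and 4 members, beside 2712 and 3246 of all 14174 genes, and DESeq2 called 3 and 0 members higher. In cycling or erythroid-like nuclei Rpsa (0.65) and Rpl3 (0.64) were higher, against 10.5% of genes higher and 4.18% lower.

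**Figure D4:**
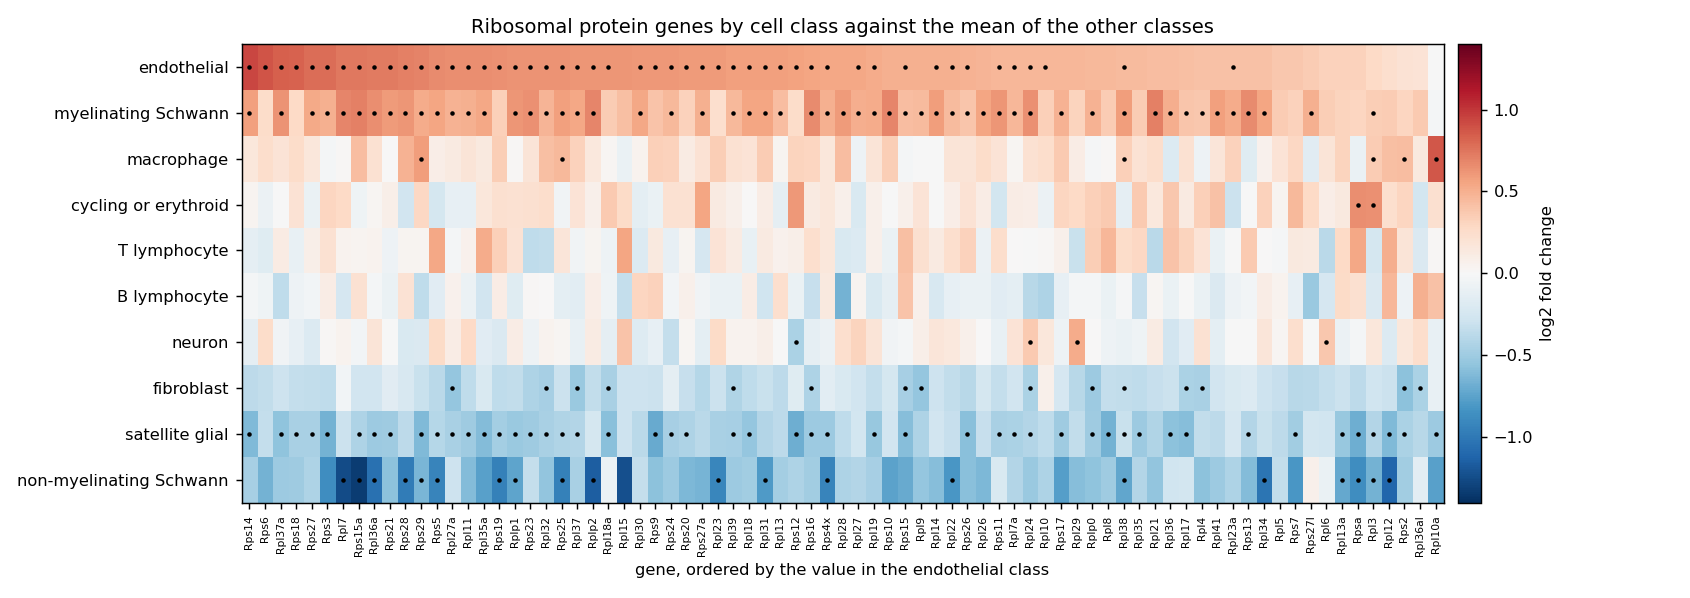
Log2 difference of ribosomal protein genes (columns, ordered by their endothelial-like value) in each class relative to the average of the others (rows), in colour, with a dot where the adjusted p was under 0.05. Endothelial-like and MSC-like rows are red nearly throughout, SGC-like and NMSC-like rows blue, and Rpl10a at the right end is near 0 in the first 2 rows and 0.87 in the macrophage-like row.

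Of the 78 members, 70 were higher in at least 1 class and 60 lower in at least 1, and 2 passed in no class. These counts were not made over all genes, of which 58% passed in neuron-like nuclei alone, and describe the members only. The highest value was in endothelial-like nuclei for 47 members and in MSC-like nuclei for 20, and the lowest was in NMSC-like nuclei for 52 and in SGC-like nuclei for 18. The widest spans between opposite calls were those of Rps15a (2.07 between endothelial-like and NMSC-like nuclei, log2) and Rpl7 (1.99), followed by Rplp2, Rpl36a and Rps28. The lower value of each was that of NMSC-like nuclei, with few UMIs behind Rps15a. The 4 X-linked members were all higher in endothelial-like nuclei, and 3 of them were lower in SGC-like nuclei. Over the 30 class sums of 10 classes and 3 libraries, the summed member share had a Spearman correlation of 0.83 with the share of mitochondrial transcripts, and of 0.96, 0.67 and 0.83 within the libraries (10 sums each). With the share of the nuclear RNA Malat1, which differed between libraries, it was -0.26, -0.47 and -0.68 within the libraries and -0.12 over all sums. The sums share libraries, depth and free RNA, and the value is a description. Among 15910 genes outside the members, those with the most like pattern over these sums were Fau (0.92), Tpt1 (0.89), Gm10076 (0.89), mt-Atp6 (0.87) and Heph (0.86). Within neuron-like nuclei, the member share of a nucleus had Spearman correlations of 0.77, 0.71 and 0.82 with its mitochondrial share and of -0.57, -0.52 and -0.61 with its depth (2438, 1494 and 849 nuclei).

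Neuron-like nuclei were split by subtype markers, and among these groups, named for their markers, large-fiber neurons had the highest mean share of ribosomal protein transcripts. These cells, the somas of touch and muscle afferents that carry Nefh, Ntrk3 and Pvalb, had 83.0, 96.2 and 86.9 member UMIs per 10000, against 66.1, 63.6 and 44.4 in Mrgprd non-peptidergic nociceptors. Peptidergic neurons (83.6, 84.9 and 65.96) were above large-fiber neurons in the adult library and Sst and Nppb neurons (78.9, 101 and 64.6) in aged replicate 1. By likeness of profiles the order changed, and large-fiber neurons, at 64.3, 55.2 and 51.1, led in aged replicate 2 alone. Sst and Nppb neurons then held 68.7, 64.0 and 50.3 and peptidergic neurons 64.8, 63.9 and 49.3. Against the mean of the other 5 subtypes, 45 of 78 members were higher and 0 lower in edgeR's quasi-likelihood test, where 29.1% of 14359 genes were higher and 29.3% lower, with a median log2 difference of 0.31. Rpl38 (0.73, SE 0.11) stood at 212, 236 and 202 CPM in large-fiber and at 120, 89.7 and 56.5 CPM in Mrgprd neurons. Rplp0, the base of the stalk (0.70, SE 0.09), stood at 82.0, 111 and 94.3 CPM against 46.2, 51.2 and 37.4 CPM, and Rpl36al (0.64, SE 0.12) at 65.6, 71.7 and 60.3 CPM against 36.6, 35.8 and 22.4 CPM. In each library these 3 genes were higher in large-fiber than in Mrgprd neurons.

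The other lists of translation genes differed in direction in large-fiber neurons, where 29.1% of all genes were higher and 29.3% lower. Of 35 translation factors 27 were higher and 0 lower, led by Eef1a2, the elongation factor of mature neurons (1.04, SE 0.11), and Tpt1 (0.95, SE 0.10), and of 35 ribosome biogenesis genes 16 were higher and 0 lower, led by Nop10 (1.04, SE 0.14). Of 19 genes of TOP control 5 were higher and 9 lower (median -0.23), with Rps6ka1 at 1.61 (SE 0.19) and Tia1 at -1.31 (SE 0.15). Mitochondrial transcripts were higher as well, with mt-Nd5 at 1.58 (SE 0.12), and their share was 55.4 per 10000 in large-fiber neurons and 16.5 in Mrgprd neurons (means over 3 libraries). Too few large-fiber nuclei remained for a test once barcodes nearest to free RNA were left out. With each nucleus thinned to 1000 UMIs 14 of 72 members were higher (19.4%), below the share of all genes (24.7%). Without aged replicate 2 22 were higher (28.2%, against 24% of genes), and without aged replicate 1 29 (37.2%, against 21.6%). The part of cytoplasm and free RNA in this result was not tested.

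In Mrgprd neurons, the polymodal nociceptors of the skin, 27 of 78 members were lower (34.6%) and 0 higher, against 22.4% of genes lower and 23.7% higher, led by Rpl38 (-0.64, SE 0.12), Rps28 (-0.51, SE 0.10) and the X-linked Rps4x (-0.47, SE 0.11). The count was 4 without aged replicate 1, 6 without aged replicate 2, 6 with barcodes nearest to free RNA left out and 8 after thinning. Assignment by likeness of profiles turned the direction, with 23 members higher and 1 lower. In Th and Tafa4 low-threshold mechanoreceptors 21 were lower (26.9%), a share near the background, and 1 higher, against 19.9% of genes lower and 22.2% higher, with the X-linked Rpl36a (-0.49, SE 0.13) and Rpl39 (-0.49, SE 0.12) lowest and Rps9 (0.27, SE 0.09) higher. The count lower there was 6 without aged replicate 1, 0 without aged replicate 2 and 0 after thinning, but 41 (52.6%, against 19.8% of genes) with barcodes nearest to free RNA left out and 38 (48.7%, against 19.4%) by likeness of profiles. Aged replicate 2 had the lowest levels of Rpl36a, with 43.8, 49.8 and 22.3 CPM, and of Rpl39, with 56.9, 64.6 and 25.1 CPM.

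Trpm8 cold-sensing neurons had 7 members lower, a share near the background of 7.58% of genes lower (11.7% were higher), with Rps2 (-0.52, SE 0.11), Rplp1 (-0.47, SE 0.13) and Rps20 (-0.46, SE 0.12) lowest. Sst and Nppb itch neurons had 6 members higher, a share below the background of 11.6% of genes higher (8.91% were lower), with Rpl18 at 0.56 (SE 0.13), Rpl36a at 0.50 (SE 0.14) and Rpl31 at 0.48 (SE 0.14). In peptidergic neurons 4 were higher, a share below the background of 15.1% of genes higher (13% were lower), among them Rps4x (0.37, SE 0.10), Rpl18 (0.34, SE 0.11) and Rpl21 (0.34, SE 0.11), and Rpl12 was lower (-0.30, SE 0.09). Without aged replicate 1 the counts were 1 lower in Trpm8, 0 higher in Sst and Nppb and 0 higher in peptidergic neurons, without aged replicate 2 they were 2, 3 and 2, and without the adult library 5, 4 and 0. With assignment by likeness of profiles 77 members were lower in Trpm8, 32 higher in Sst and Nppb and 55 higher in peptidergic neurons. These are not the same sets, as the Trpm8 group grew from 98, 49 and 29 to 1075, 341 and 188 nuclei. Its share by profiles (33.7, 36.8 and 27.9 per 10000) enters the average that each other subtype is compared with. No share of all genes is set beside these counts. With barcodes nearest to free RNA left out the counts were 1, 10 and 11, and the Trpm8 median turned from -0.15 to 0.032. Rps4x thus stood at 95.6, 107 and 70.1 CPM in peptidergic, at 48.4, 62.5 and 37.5 CPM in Mrgprd and at 51.8, 74.1 and 33.3 CPM in Th and Tafa4 neurons. Within each library, the peptidergic value of Rps4x was above the other 2.

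To ask how these genes differ with age, the aged libraries were set against the adult one, in all kept nuclei, in free RNA and in each class. With 1 adult library, age and library cannot be told apart, and the 1 residual degree of freedom comes from the pair of aged libraries. The adult library also had the most Xist and the most Ddx3y, and of 4 genes of the sex check that were tested 3 were lower with age (median -0.99). The part of sex in the age values was not tested. Over all kept nuclei 1 of 79 members was higher and 4 were lower in edgeR's quasi-likelihood test, against 3.65% and 8.82% of 23245 genes. The median member difference was -0.17 (log2), beside 0.01 over all genes, and it was -0.40 with aged replicate 2 alone and 0.039 with aged replicate 1 alone, where no test is possible. For 47 members the adult CPM lay between those of the aged libraries. Such counts, here and below, were not made over all genes and describe the members only.

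Rpl36, a short gene on chromosome 17 (chr17:56613416-56614243, GRCm38), was the 1 member higher with age. It stood at 12.2, 36.6 and 29.2 CPM, a log2 difference of 1.30 (SE 0.22, adjusted p = 2.76e-07 with edgeR's quasi-likelihood test). Its difference ran from 0.65 (SE 0.80, cycling or erythroid-like) to 2.55 (SE 0.81, macrophage-like) over the 9 classes in which it was tested, which share their libraries. Neither end passed, and both rest on few adult UMIs, at 32.6 CPM in a sum of 122884 UMIs and 6.49 CPM in a sum of 308386 UMIs. Rpl36 passed in neuron-like (1.31, SE 0.26), SGC-like (0.97, SE 0.29) and MSC-like nuclei (0.88, SE 0.27). In neuron-like nuclei it stood at 12.1, 37.5 and 28.0 CPM. Free RNA differed in the same way, with 48.4, 127 and 155 CPM (1.60, SE 0.15). In each of these, both aged libraries lay above the adult library.

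The members lower with age in kept nuclei were Rpl37a (-0.68, SE 0.20), Rps27l (-0.64, SE 0.21), Rps14 (-0.62, SE 0.20) and Rpl3l (-1.34, SE 0.46). Rpl37a stood at 137, 112 and 75.3 CPM, Rps14 at 106, 86.0 and 65.1 CPM and Rps27l at 23.8, 20.05 and 13.4 CPM. Both aged libraries were below the adult one for each. All 3 were lower in free RNA too, with Rpl37a at 528, 352 and 358 CPM (-0.51, SE 0.10), Rps14 at 447, 257 and 280 CPM (-0.67, SE 0.11) and Rps27l at 96.5, 56.6 and 56.9 CPM (-0.70, SE 0.12). Rpl3l rested on 69, 19 and 12 UMIs, 38 of the adult ones in barcodes with no class. DESeq2 called none of the 4.

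In free RNA itself 10 members were higher and 7 lower in the aged libraries, against 8.42% and 8.92% of 19189 genes. After Rpl36, the largest were Rps6, with 127, 197 and 203 CPM (0.72, SE 0.11), Rpl9, with 171, 236 and 254 CPM (0.58, SE 0.11), and Rpl7a, with 155, 214 and 222 CPM (0.56, SE 0.11). The adult value lay between those of the aged libraries for 3 of 78 members, with no count over all genes beside it. In kept nuclei Rps6 stood at 43.4, 72.2 and 51.6 CPM, and edgeR's test gave an adjusted p of 0.271. Across members, the age difference and exon length had a Spearman correlation of 0.38 in kept nuclei and 0.31 in free RNA over 78 genes, with shorter genes lower in the aged libraries.

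By class, most of the members that passed were lower with age, and most such calls were in SGC-like and MSC-like nuclei. In SGC-like nuclei 26 were lower and 1 higher, against 5.08% and 3.07% of 14416 genes, with a median of -0.43. Rpl37a led with 120, 69.3 and 62.2 CPM (-1.003, SE 0.18), then Rps14 with 94.6, 59.6 and 45.1 CPM (-0.96, SE 0.19) and Rpl23a with 159, 111 and 83.4 CPM (-0.82, SE 0.17). Both aged libraries were below the adult one for 53 of 78 members, with no count over all genes beside it. In MSC-like nuclei 27 were lower and 1 higher, against 5.1% and 2.68% of 13573 genes, with Rpl23a at 298, 182 and 137 CPM (-0.99, SE 0.17), Rpl37a at 266, 178 and 129 CPM (-0.87, SE 0.17) and Rps25 at 209, 131 and 114 CPM (-0.87, SE 0.17). In fibroblast-like nuclei Rps14 (-1.31, SE 0.19), Rpl37a (-1.25, SE 0.21) and Rpl23a (-1.01, SE 0.18) were lower, against 0.985% of genes lower and 0.738% higher. The median of all members there was -0.58. For 65 of 78 both aged libraries were below the adult one, again with no count over all genes. In neuron-like nuclei Rpl36 alone passed, against 0.755% of genes higher and 3.61% lower, and 8 members had an unadjusted p under 0.05.

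The calls in SGC-like and MSC-like nuclei depended on how free RNA was handled, and did not hold once it was subtracted. With free RNA subtracted from each sum, 1 member was lower and 2 were higher in SGC-like nuclei and 0 passed in MSC-like nuclei, and the medians were -0.045 and -0.091. Scaled free RNA was 49.2%, 21.8% and 28.0% of SGC-like and 69.7%, 40.4% and 64.3% of MSC-like member UMIs. Subtraction therefore took the largest share from the adult sums. Summed over classes, lower calls were more numerous with barcodes nearest to free RNA left out and by likeness of profiles. SGC-like barcodes not nearest to free RNA held 52.3, 41.1 and 33.8 member UMIs per 10000. DESeq2 called 0 members lower in SGC-like and 1 in MSC-like nuclei. Depth and Malat1 also differed between ages, since the median SGC-like nucleus held 3269 UMIs in the adult library and 7156 and 8125 UMIs in the aged ones, and Malat1 was lower with age in kept nuclei (-1.83, SE 0.31). The part of these in the calls was not tested. In endothelial-like, macrophage-like, NMSC-like, T and B lymphocyte-like and cycling or erythroid-like nuclei no member passed in edgeR's test (median -0.67 in NMSC-like nuclei), with 6, 6, 13, 0, 1 and 9 members at an unadjusted p under 0.05 and 0 by DESeq2. In the same order, 0.335%, 2.55%, 0.611%, 0%, 1.04% and 0.0251% of genes were higher and 0.953%, 3.66%, 2%, 0.0484%, 3.11% and 0.327% lower.

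The age difference of neuron-like nuclei was set against that of SGC-like nuclei in 1 fit blocked on library. No member passed in edgeR's quasi-likelihood test, where 1.05% of 20274 genes did (0.404% higher and 0.641% lower), 4 members had an unadjusted p under 0.05 and DESeq2 called 0. The member difference was above 0 for all 79 members, with a median of 0.25 (log2) beside 0.08 over all genes. The largest of the 4 were Rpl35 (0.65, SE 0.24, adjusted p = 0.274) and Rps12 (0.64, SE 0.23, adjusted p = 0.252). With free RNA subtracted the median was -0.067. By likeness of profiles 1 member was higher, and 1 with barcodes nearest to free RNA left out.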

How the data were processed

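The authors deposited, for each library, a table of UMI counts per gene and barcode, aligned to mm10 per the submitters' notes and counted with Pipseeker per the study's methods. These raw counts were used as deposited. Kept barcodes had over 1000 genes, the minimum the study used. The study then also removed clusters of low quality or doublets, a step that was not repeated here. Barcodes of 10 to 99 UMIs were summed as free RNA. Kept nuclei were scored on marker lists (the mean over markers of the natural log of 1 plus counts per 10000 UMIs, standardized over nuclei), and a nucleus took the top class where its score was above 0.5, led the next by over 0.25 and rested on 3 or more detected markers (2 for neuron subtypes). A score above 0.25 on the neuron markers or on those of any neuron subtype barred the NMSC-like class. The cycling or erythroid-like class needed 2 of Top2a, Mki67 and Alas2. This scoring rule was set after the data were seen. No doublet caller was run, and mixed nuclei (between 7.32% and 8.71% a library) and nuclei with no class (between 21.7% and 28.5%) were left out of class sums. The ribosomal protein genes and all lists were chosen with earlier results of these data known.

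UMIs were summed per library and class, and classes with at least 20 nuclei in every library were tested. Tests used edgeR 4.0.16 in R 4.3.3 (quasi-likelihood, TMM scaling, filterByExpr, Benjamini-Hochberg adjustment over all genes tested, threshold 0.05), with the library as a block for contrasts within libraries. Age was tested as 2 aged libraries against 1 adult library, so the adult library was assumed to vary like the aged ones. P-values measure only the spread between these libraries, with variances that edgeR moderates over all genes tested. With 1 residual degree of freedom, the age p-values lean on that moderation. CPM are UMIs of a gene scaled to 1000000 UMIs of the sum. Poisson 95% intervals cover counting error only. Scripts were tested on simulated data. Counts under an alternative stand without the share of all genes called in it, unless that share is printed. Age counts at an unadjusted p have no such share either. Alternatives were RLE scaling, no filter, DESeq2 1.42.0, Malat1 and mitochondrial genes left out, more than 2000 genes, free RNA from 100 to below 200 UMIs, assignment by likeness of profiles, thinning to 1000 UMIs, subtraction of free RNA scaled to hemoglobin (not where it made up over 50% of a sum) and each library left out. Leaving out barcodes nearest to free RNA, thinning between nuclei, classes and subtypes, subtraction for age, and the alternatives for the interaction were chosen after seeing the data. Gene positions are from GENCODE M21 and start windows from RefSeq, and Python 3.11.15, numpy 2.4.6, pandas 2.3.3, scipy 1.17.1 and matplotlib 3.10.9 did the rest. Members were named as the 10 with most UMIs, the 5 with fewest, the 3 largest differences a direction among those that passed in a comparison (up to 10 for age over all kept nuclei), paralogue pairs, the stalk proteins and Rpsa, and the 5 widest opposite calls between classes. From other lists up to 4 genes were eligible. Some genes that these rules name, 1 of them also left out of the plot by gene, are not reported here. Rpl10a beyond macrophages and Rps6 and Rpl36 outside their calls were followed after their values were seen.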

Additional observations from a re-analysis of the deposited data

Results flagged for a closer look

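Barcodes from 200 to below 500 UMIs lay in neither the nuclei nor the free RNA that were compared, and they held the largest shares of ribosomal protein transcripts of any depth. The 81 members took 375 (adult), 310 (aged replicate 1) and 298 (aged replicate 2) of every 10000 UMIs there. In the same libraries free RNA of 10 to 99 UMIs held 229, 213 and 222, and kept nuclei held 64.9, 73.4 and 52.7. The share was lower in barcodes from 500 to below 1000 UMIs, at 306, 217 and 205, and from 1000 to below 2000 UMIs, at 144, 150 and 143. What these barcodes hold was not tested.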

How the results depend on the processing

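No paired analysis was possible because the adult and aged groups share only replicate number 1, which is given by label and not by animal. The 78 members lower in nuclei than in free RNA were 78 under each of the 11 alternatives run. Members higher by class, 116 summed over classes, were between 51 and 83 when 1 library was left out, and the 87 lower were between 6 and 61. The latter were 36 with no filter, 149 with DESeq2, 184 by likeness of profiles, 46 after thinning and 38 with free RNA subtracted from all but 4 sums. By neuron subtype, the 56 higher were between 28 and 52 without 1 library, 143 by likeness of profiles, 20 after thinning and 23 without barcodes nearest to free RNA, where large-fiber neurons could not be tested and the other 5 subtypes had 11 as reported. The 56 lower were between 8 and 57 without 1 library, 33 with no filter, 116 by likeness of profiles and 13 after thinning. The cause was not tested.

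By age, the 1 member higher in kept nuclei was 2 after thinning, and the 4 lower were 0 with no filter, 0 with DESeq2, 10 without barcodes nearest to free RNA and 1 after thinning. Over classes, the 3 higher calls were 1 with DESeq2, 1 with more than 2000 genes, 1 without barcodes nearest to free RNA, 1 after thinning and 6 with free RNA subtracted. The 56 lower calls were 1 with DESeq2, 142 by likeness of profiles, 110 without barcodes nearest to free RNA, 18 after thinning and 7 with free RNA subtracted. In free RNA the 10 higher were 21 with no filter and 5 with DESeq2, and the 7 lower were 3 with DESeq2. The median age difference in kept nuclei, -0.17, turned to 0.011 after thinning, and ran from -0.40 to 0.039 without 1 aged library. With free RNA subtracted it was -0.045 in SGC-like and -0.091 in MSC-like nuclei, and in fibroblast-like nuclei it was -0.75 by likeness of profiles and -0.42 after thinning. The interaction of age in neuron-like and SGC-like nuclei had 1 member higher without barcodes nearest to free RNA and 1 by likeness of profiles, and its median of 0.25 was 0.47 with more than 2000 genes and turned to -0.067 with free RNA subtracted. The cause was not tested.

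The member share of kept nuclei, 63.7 per 10000 UMIs, was 89.3 after thinning, and that of free RNA, 221, was 231 with 4 genes outside the name rule added and 282 in barcodes of 100 to below 200 UMIs. Of 699 alternative values of 70 named results, 534 kept direction and side of the threshold, 162 lost the threshold and 3 turned. Those 3 were Rps12 in neuron-like nuclei (0.066 with free RNA subtracted), Rpl24 in neuron-like nuclei (-0.052 by likeness of profiles) and Rpl36a in Th and Tafa4 neurons (0.15 after thinning). Age could not be tested without 1 library, since 1 against 1 leaves no residual degrees of freedom.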

Other observations

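Other genes of translation were measured in neuron-like nuclei too. Of 35 translation factors tested against the mean of the other classes, 13 were higher and 2 lower in edgeR's quasi-likelihood test, beside 32.8% and 25.2% of all genes. The share of higher ones is near that background. The largest were Eef1a2 (log2 difference 1.35, SE 0.15), the form of elongation factor 1A that mature neurons use, and the initiation factor Eif1ax (1.06, SE 0.14). Of 34 ribosome biogenesis genes tested 9 were higher and 0 lower, a share of higher genes below that background, among them Rrp12 (0.97, SE 0.29), Ltv1 (0.85, SE 0.25) and Nhp2 (0.79, SE 0.23). The kinases of the S6 kinase family that lie below Erk went both ways, with Rps6ka2 at 1.84 (SE 0.19) and Rps6ka1 at -1.56 (SE 0.22). In SGC-like nuclei 5 of 35 translation factors were lower and 0 higher, beside 14.1% of all genes lower and 18.8% higher, so that the share of lower ones is at the background. The lowest was Rack1 (-0.78, SE 0.16), a scaffold of the small subunit, and Nop56 of the box C/D complex was the 1 biogenesis gene that passed (-0.71, SE 0.17).

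By age, Nop10 was lower in the aged libraries in kept nuclei (-1.15, SE 0.20) and in free RNA (-1.01, SE 0.11). Of 35 ribosome biogenesis genes, 2 were lower and 0 higher in kept nuclei, and 2 lower and 7 higher in free RNA. Over all genes 8.82% were lower and 3.65% higher in kept nuclei, and 8.92% lower and 8.42% higher in free RNA. These comparisons share their libraries. In free RNA 19 of 35 translation factors were higher in the aged libraries and 0 lower, led by Eef1a1 (0.84, SE 0.11) and Eef1a2 (0.76, SE 0.11). In kept nuclei 0 of the 35 passed. Of 19 genes of TOP control and the S6 kinases 1 was higher and 1 lower in free RNA. The lower one was Rptor, the mTOR complex subunit that binds its substrates (-1.42, SE 0.11).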
